A study of Mus musculus with 16 samples.

Results

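The expression of 34 marker genes of liver myeloid cells was read in bulk RNA from 16 mouse livers. They cover Kupffer cells, lipid-associated macrophages, monocytes and neutrophils, with genes listed for leukocytes in general. The markers were taken as the rows of both deposited count tables whose Ensembl identifier maps to a listed symbol. All 34 listed genes had a row in both tables, out of 23167 identifiers found in both and 26296 found in either, and the lowest count of any of them in any library was 2. They fall into 10 genes of resident macrophages, 4 of macrophages in general, 5 of lipid-associated macrophages, 4 of monocytes and dendritic cells, 6 of neutrophils and 5 of leukocytes in general.

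The study asked what loss of matrin-3, a nuclear matrix protein that binds RNA, does to the liver transcriptome under a high-fat diet. Floxed and LKO mice of both sexes made up 4 groups of 4, with 1 liver library per mouse. The floxed mice carried loxP-flanked Matr3 alleles, and the LKO mice (liver-specific knockout) carried the floxed alleles together with Cre recombinase under the albumin promoter. The albumin promoter is active in hepatocytes, so the deletion is not aimed at the myeloid cells whose markers are read here. All 16 mice were put on a high-fat diet (60% of energy as fat) at 7 weeks of age, kept on it for 16 weeks and were fasted for 12 hours before tissue was taken, so no group on another diet stands beside them.

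Kupffer cells are the resident macrophages of the liver and sit in the sinusoids, where they take up bacteria, old red cells and complement-coated particles. When the liver stores fat, monocytes enter from the blood and can become lipid-associated macrophages, which carry TREM2, GPNMB and osteopontin. Neutrophils are short-lived granulocytes that are rare in quiet liver and store the S100A8/S100A9 protein in bulk. In RNA from whole tissue, fewer cells of a type and less RNA per cell cannot be told apart.

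The libraries held 30495505 to 36496193 counts assigned to genes. In each sex no LKO library reached the lowest Matr3 level of the floxed libraries, and the LKO mean was 61.3% of the floxed mean in males and 65.4% in females (exact permutation p = 0.0286, two-sided, in each sex, the smallest that 70 regroupings of 4 and 4 allow). Within the female groups, floxed 4 and LKO 7 stood apart. On the first principal component of all genes tested in females, floxed 4 lay at -10.3 and the other floxed females between -38.7 and -32.7, while LKO 7 lay at 6.58 and the other LKO females between 31.6 and 40.8. Of the 34 markers, 32 had their highest level among floxed females in floxed 4, 28 had their lowest among LKO females in LKO 8, and 29 had their highest among LKO males in LKO 8. Male floxed 3 held the lowest value of its group for 24 markers and male floxed 1 the highest for 23. By their mouse numbers in the labels, male floxed 1 and 2 stand away from the other mice. Leaving out female floxed 4 lowers the floxed female level of nearly all markers. This raises LKO over floxed fold changes and lowers female over male differences. Calls gained between the female genotypes that way depend on this choice of library and are given as a description. Marker calls between the female genotypes and between the floxed sexes that changed without female floxed 4 or without male floxed 1 and 2 are named, and companion genes named below were also tested without female floxed 4.

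Levels below are CPM, counts scaled to a common library size (after TMM), and RPKM is CPM per kilobase of exon. Per length, the most abundant of the 34 transcripts in floxed females were Cd5l at 108 ± 22.9 RPKM, C1qa at 98.4 ± 15.9 RPKM, Clec4f at 89.2 ± 17.1 RPKM, Lyz2 at 85.8 ± 16.4 RPKM and C1qb at 85.8 ± 15.1 RPKM (mean ± SD, n = 4). Neighbours in that order lay within their SDs. The lowest were Mmp9 at 0.510 ± 0.312, Cxcr2 at 0.285 ± 0.243, Itgam at 0.248 ± 0.0627 and Gpnmb at 0.106 ± 0.0456 RPKM. In floxed males Lyz2 came first at 47.3 ± 12.02 RPKM and Spp1 was number 6 at 29.2 ± 3.09 RPKM, against number 9 in floxed females. The defining markers of resident macrophages were thus present in all 16 livers, and those of monocytes were near the bottom of the range. Among the latter, the counts of Itgam and Ly6c2 are uncertain, for reasons given below.

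**Figure D1:**
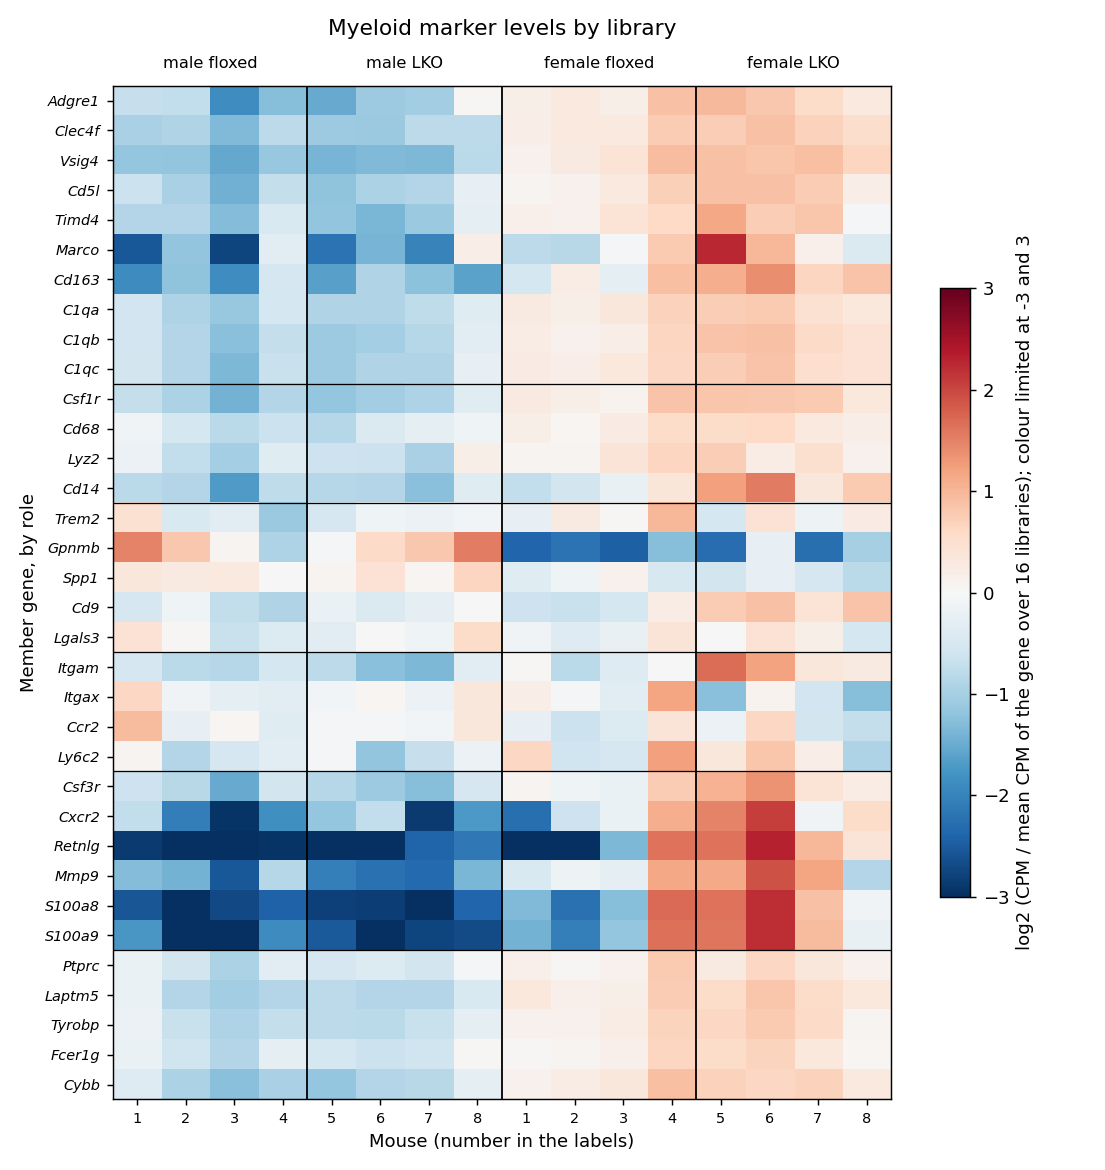
Level of each of the 34 markers (rows, grouped by role with lines between groups) in each of the 16 libraries (columns, by mouse number and group). Colour is the log2 of CPM over the gene's mean CPM of all 16 libraries, limited at -3 and 3, with red above and blue below. The female columns are mostly red and the male columns mostly blue in the resident macrophage, neutrophil and leukocyte rows, while Gpnmb runs the other way, and female floxed 4 is redder than floxed 1 to 3.

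In the heat map of markers by library the colours separate the sexes more than the genotypes, and more markers passed the test between the sexes. Between floxed females and floxed males, 24 of 34 markers passed the edgeR test (22 higher and 2 lower in females), where 22.9% of all 16126 genes tested passed, 11.3% higher and 11.6% lower. The median log2 difference of the markers was 1.08, against 0.00 for all genes. Between LKO females and LKO males, a comparison added after the data were seen, 29 of 34 passed (27 higher and 2 lower), where 42% of all genes passed, 21.2% higher and 20.8% lower. Cxcr2 and Retnlg were under the count filter in males and entered these comparisons through the female libraries, so a call of either (Retnlg in floxed mice, both in LKO mice) had to favour females. Of the 32 other markers, 21 were higher and 2 lower in floxed females, and 25 were higher and 2 lower in LKO females. Between LKO and floxed females, 3 of 34 passed, each higher in LKO, where 9.29% of all genes passed and 4.44% passed higher, so the share of markers was near the background. Between LKO and floxed males, 0 of 32 markers tested passed, where 1.04% of all genes passed. The sexes were deposited as separate tables, so sex and anything else that differed between the tables cannot be told apart. These comparisons share libraries and are not independent of each other.

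Resident macrophage markers were higher in female than in male livers. In floxed mice 9 of the 10 passed, each of them higher in females, with log2 differences of 1.11 to 1.68 (the exception was Marco), where 11.3% of all genes were higher. Summed over the 10 genes, the level lay between 781 and 1213 CPM in floxed females and between 269 and 446 CPM in floxed males. In LKO mice 10 of 10 passed, all higher in females as 21.2% of all genes were, and the sums lay between 943 and 1417 CPM in females and 316 and 541 CPM in males. In each genotype every female library was thus above every male library. Between LKO and floxed females none of the 10 passed with edgeR, where 9.29% of all genes did. An unadjusted p under 0.05 was reached by 4 of the 10 and by 27.7% of all genes. All 10 fold changes were above 0 with a median of 0.37, beside 50.2% of all genes with a fold change above 0.

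Vsig4 encodes a complement receptor (CRIg) with which Kupffer cells capture opsonised bacteria. It measured 51.9, 57.3, 63.8 and 91.1 CPM in floxed females 1 to 4 and 88.1, 84.9, 90.1 and 74.2 CPM in LKO females 5 to 8. In males it measured 21.3, 20.95, 16.4 and 21.7 CPM in floxed 1 to 4 and 18.2, 18.96, 18.9 and 27.3 CPM in LKO 5 to 8. Every female was above every male, and floxed females exceeded floxed males by 1.68 on the log2 scale (SE 0.16, edgeR adjusted p = 3.05e-06), a fold of 3.20. Clec4f, a C-type lectin made almost exclusively by Kupffer cells, measured 191, 204, 204 and 283 CPM in floxed and 278, 305, 266 and 238 CPM in LKO females. Its levels in males were 83.9, 87.9, 66.03 and 96.8 CPM in floxed and 78.4, 76.4, 96.2 and 95.6 CPM in LKO mice. The lowest female value was again above the highest male value, with a difference of 1.36 in floxed mice (SE 0.14, edgeR adjusted p = 3.99e-06). Within females both genes had 3 floxed libraries below all LKO libraries and floxed 4 among or above the LKO values. Their LKO against floxed fold changes, 0.35 for Vsig4 and 0.30 for Clec4f, did not pass (edgeR adjusted p = 0.181 and 0.178). Without floxed 4 both did, at 0.55 and 0.44 (edgeR adjusted p = 0.0127 and 0.0254). Floxed 4 was the highest floxed library for both genes, so its omission was bound to raise these fold changes.

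Adgre1 encodes F4/80, the classical surface marker of mouse macrophages. It measured 26.8, 29.4, 27.1 and 43.9 CPM in floxed and 47.1, 41.99, 35.1 and 29.00 CPM in LKO females. Male values were 14.8, 14.2, 6.56 and 9.89 CPM in floxed and 8.42, 11.3, 11.6 and 24.6 CPM in LKO mice, where LKO 8 held the highest. Floxed females lay above floxed males by 1.45 (SE 0.30, edgeR adjusted p = 0.00297), and the genotypes overlapped in both sexes. Cd5l, a secreted scavenger receptor protein also called AIM, measured 185, 192, 212 and 287 CPM in floxed and 319, 323, 298 and 199.5 CPM in LKO females. In males its level was 112, 89.3, 64.6 and 107 CPM in floxed and 76.02, 90.6, 94.8 and 147 CPM in LKO mice. The sexes did not overlap in either genotype (1.20 in floxed mice, SE 0.22, edgeR adjusted p = 0.00108). Timd4 encodes the phosphatidylserine receptor TIM-4, which marks long-lived Kupffer cells of embryonic origin. It had 11.4, 11.2, 13.8 and 15.7 CPM in floxed and 22.9, 17.1, 18.2 and 9.93 CPM in LKO females, against 5.63, 5.57, 4.16 and 7.45 CPM in floxed and 4.57, 4.001, 4.80 and 8.35 CPM in LKO males. Floxed females exceeded floxed males by 1.16 (SE 0.25, edgeR adjusted p = 0.00399).

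The 3 chains of the complement component C1q, which macrophages secrete, were each higher in females than in males. C1qa measured 94.4, 89.4, 99.1 and 126 CPM in floxed and 132, 136, 107 and 98.5 CPM in LKO females, and 52.5, 41.7, 35.9 and 54.8 CPM in floxed and 41.9, 41.99, 46.3 and 60.99 CPM in LKO males. C1qb measured 87.8, 81.8, 86.1 and 118 CPM in floxed and 135, 139, 112 and 101 CPM in LKO females, and 50.5, 40.9, 31.4 and 45.7 CPM in floxed and 35.2, 37.1, 41.6 and 59.2 CPM in LKO males. C1qc measured 81.6, 78.3, 85.1 and 106 CPM in floxed and 115, 124, 97.6 and 92.4 CPM in LKO females, and 47.00, 37.01, 27.1 and 43.03 CPM in floxed and 32.2, 36.6, 36.4 and 58.2 CPM in LKO males. The 3 genes lie side by side on chromosome 4 (mm10 chr4:136880129-136886187, chr4:136889804-136893065 and chr4:136895917-136898803 for C1qb, C1qc and C1qa, all on the minus strand). All female values were above all male values of the same genotype. Floxed females exceeded floxed males by 1.11, 1.11 and 1.15 on the log2 scale for C1qa, C1qb and C1qc (SE 0.16, 0.17 and 0.18, edgeR adjusted p = 1.52e-04, 3.52e-04 and 3.94e-04). Their LKO against floxed fold changes in females were 0.21, 0.38 and 0.29 and did not pass, with floxed 4 the highest floxed library for each.

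Cd163 and Marco, both scavenger receptors, varied more between mice of a group. Cd163, which takes up haemoglobin bound to haptoglobin, measured 26.6, 44.2, 31.4 and 71.3 CPM in floxed and 81.2, 101, 59.9 and 69.4 CPM in LKO females. In males it measured 10.3, 16.5, 10.5 and 26.8 CPM in floxed and 12.3, 20.5, 16.3 and 12.5 CPM in LKO mice. Male floxed 4 lay just above female floxed 1, and the difference between floxed sexes of 1.40 passed (SE 0.32, edgeR adjusted p = 0.0055) but not without male floxed 1 and 2 (0.0623). In females its fold change of 0.84 (SE 0.28) was the largest among resident markers after Marco. The edgeR adjusted p was 0.0893, which became 0.0114 without floxed 4. DESeq2 called it with all libraries, at an adjusted p of 0.0223. Marco measured 24.3, 23.3, 40.6 and 71.3 CPM in floxed and 198, 83.5, 45.9 and 30.9 CPM in LKO females. Male levels were 7.13, 18.2, 6.12 and 33.2 CPM in floxed and 8.93, 15.9, 10.3 and 47.7 CPM in LKO mice. Single libraries (female LKO 5, male LKO 8 and male floxed 4) stood far above the others, the sexes overlapped in both genotypes, and the difference between floxed sexes did not pass (1.27, SE 0.67, edgeR adjusted p = 0.183). Between LKO sexes it did (2.08, edgeR adjusted p = 0.0203), though not without female LKO 5 (0.11) or without male LKO 5, 6 or 7 (0.062, 0.0549 and 0.0621).

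Promoters of 28 of the 34 markers could be read from RefSeq (GRCm38.p6, the mm10 assembly). The window ran from 250 bases before to 50 bases after the annotated start. They are shown because PU.1, the master transcription factor of myeloid cells encoded by Spi1, is known to bind a GAGGAA core (TTCCTC on the other strand). The 250 bases before the start of Vsig4 (chrX:96293439-96293688, minus strand), C1qb (chr4:136886201-136886450, minus strand), S100a8 (chr3:90668821-90669070, plus strand) and Itgam (chr7:128062390-128062639, plus strand) are given 5′ to 3′, with each GAGGAA or TTCCTC in capitals.
Vsig4: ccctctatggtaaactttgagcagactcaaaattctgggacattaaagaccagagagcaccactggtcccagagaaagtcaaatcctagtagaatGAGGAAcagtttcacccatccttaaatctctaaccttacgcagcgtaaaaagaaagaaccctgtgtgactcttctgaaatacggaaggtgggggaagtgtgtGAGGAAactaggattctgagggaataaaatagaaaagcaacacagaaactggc
C1qb: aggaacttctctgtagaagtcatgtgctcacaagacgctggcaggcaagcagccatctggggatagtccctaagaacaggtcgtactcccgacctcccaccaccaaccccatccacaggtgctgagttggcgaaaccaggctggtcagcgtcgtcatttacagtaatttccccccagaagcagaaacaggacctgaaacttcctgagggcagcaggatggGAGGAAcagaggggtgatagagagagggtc
S100a8: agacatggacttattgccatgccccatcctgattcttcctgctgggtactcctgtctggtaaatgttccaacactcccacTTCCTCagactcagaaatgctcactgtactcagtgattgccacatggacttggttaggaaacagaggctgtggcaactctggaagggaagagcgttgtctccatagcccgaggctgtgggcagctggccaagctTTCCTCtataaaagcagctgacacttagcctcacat
Itgam: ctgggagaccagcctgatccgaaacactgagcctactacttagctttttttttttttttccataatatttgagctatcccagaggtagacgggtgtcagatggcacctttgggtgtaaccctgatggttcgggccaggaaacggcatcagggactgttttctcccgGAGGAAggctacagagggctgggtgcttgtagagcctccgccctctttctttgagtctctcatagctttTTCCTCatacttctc
On either strand, GAGGAA was in the windows of 16 of the 28 markers (57.1%) and of 31.3% of all 27025 genes with a window. The longer GAGGAAGT (ACTTCCTC on the other strand) was in 4 (14.3%; C1qc, Ly6c2, S100a8 and Spp1) and in 3.69% of all genes, and its matches are among those of the shorter motif. Vsig4 held 2 matches, at 155 and 53 bases before the start, S100a8 2 at 170 and 36 bases before it, C1qb 1 at 30 bases before it, and Itgam 3, at 84 and 15 bases before the start and, beyond the stretch shown, 32 bases after it. Clec4f and Cd9 had windows without a match. Spi1 itself was higher in floxed females than in floxed males by 0.90 (SE 0.24, edgeR adjusted p = 0.0128), and by 0.68 without female floxed 4, where it did not pass (0.0508). Matches of letters are a description of the windows, and their part, or that of Spi1, in the differences between the sexes was not tested.

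Among the 4 genes of macrophages in general, 3 were higher in floxed females than in floxed males, as 11.3% of all genes were. Cd14, 1 of the 4, was higher in LKO than in floxed females, as 4.44% of all genes were. Csf1r encodes the receptor for CSF1, on which macrophages depend for survival. It measured 98.6, 93.6, 88.6 and 149 CPM in floxed and 147, 144, 143 and 103 CPM in LKO females, and 50.2, 42.6, 30.8 and 44.9 CPM in floxed and 36.6, 39.8, 43.2 and 64.5 CPM in LKO males. Floxed sexes differed by 1.32 (SE 0.20, edgeR adjusted p = 2.72e-04) without overlap. Cd68, a lysosomal glycoprotein of phagocytes, measured 16.8, 15.6, 17.7 and 22.04 CPM in floxed and 21.8, 22.5, 18.2 and 17.3 CPM in LKO females, and 13.99, 10.3, 8.55 and 9.51 CPM in floxed and 8.33, 11.1, 12.2 and 13.8 CPM in LKO males. Lyz2, the lysozyme of myeloid cells, measured 96.2, 95.9, 119 and 141 CPM in floxed and 151, 105, 126 and 98.4 CPM in LKO females, and 80.2, 54.1, 44.8 and 69.7 CPM in floxed and 58.4, 57.3, 45.9 and 102 CPM in LKO males. The floxed sexes differed by 0.73 and 0.83 (SE 0.17 and 0.23, edgeR adjusted p = 0.00482 and 0.0159), and the call of Lyz2 was lost without female floxed 4 (0.054) or male floxed 3 (0.0543). Exons of Csf1r share 873 bases with Hmgxb3 on the opposite strand, and the strand setting of the counting is not given in the sources used here.

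Cd14 encodes a co-receptor for bacterial lipopolysaccharide and rose 2.41-fold in LKO females. It measured 4.67, 5.36, 6.77 and 10.2 CPM in floxed females and 18.4, 23.1, 9.87 and 13.5 CPM in LKO females. Floxed 1 to 3 were below all LKO libraries, and floxed 4 lay just above LKO 7. The log2 fold change was 1.27 (SE 0.29, edgeR adjusted p = 0.0286). Leaving out floxed 1, 2 or 3 (edgeR adjusted p = 0.0861, 0.0882 and 0.0684) or LKO 5 or 6 (0.0796 and 0.0705) took the call away. In males Cd14 measured 4.44, 4.26, 2.40 and 4.60 CPM in floxed and 4.31, 4.30, 3.27 and 6.09 CPM in LKO mice, with a fold change of 0.20 that did not pass. Floxed females and males differed by 0.74 without passing (edgeR adjusted p = 0.0762), while LKO females exceeded LKO males by 1.82 (SE 0.29, edgeR adjusted p = 1.25e-04). The female levels of floxed mice stood just above the male ones with each sex scaled alone and overlapped them with all 16 libraries scaled together.

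The 5 genes of lipid-associated macrophages did not share a pattern. Cd9 rose in LKO females, Gpnmb and Spp1 were lower in floxed females than in floxed males, and Trem2 and Lgals3 passed in no comparison reported here. Cd9 encodes a tetraspanin that is found on these macrophages and on many other cells. It measured 11.3, 10.98, 12.02 and 20.1 CPM in floxed females and 29.6, 31.8, 23.1 and 31.4 CPM in LKO females. All LKO values were above all floxed values, and the fold change was 1.09 (SE 0.19, edgeR adjusted p = 0.0118), a fold of 2.13. The call held in all 18 alternatives run for females, with edgeR, DESeq2 or limma-voom adjusted p between 6.91e-06 and 0.0464. In males Cd9 measured 12.1, 15.9, 10.4 and 9.29 CPM in floxed and 15.2, 12.8, 14.2 and 17.2 CPM in LKO mice. These groups overlapped, and the fold change of 0.31 (SE 0.16), which had the smallest p of the 32 markers tested in males, did not pass (edgeR adjusted p = 0.464). Exons of Cd9 share 218 bases with Gm26728 on the opposite strand.

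Gpnmb, a transmembrane glycoprotein induced in lipid-loaded macrophages, was the marker with the largest difference in favour of males. It measured 7.62, 4.77, 2.90 and 1.44 CPM in floxed and 2.61, 4.09, 4.80 and 7.97 CPM in LKO males, and 0.529, 0.589, 0.504 and 1.13 CPM in floxed and 0.563, 2.32, 0.570 and 1.36 CPM in LKO females. No female reached the lowest male of the same genotype, and floxed females were 6.22-fold lower (-2.64 on the log2 scale, SE 0.54, edgeR adjusted p = 0.00265). Without male floxed 1 and 2, which held the 2 highest values of floxed males, the adjusted p was 0.0549. Between LKO sexes the difference was -2.05 (SE 0.51, edgeR adjusted p = 0.00424). Spp1 encodes osteopontin, which bile duct cells make too. It measured 52.01, 49.3, 50.7 and 40.7 CPM in floxed and 43.7, 55.2, 42.98 and 64.3 CPM in LKO males, and 31.9, 37.5, 44.7 and 29.5 CPM in floxed and 28.1, 34.9, 29.1 and 23.3 CPM in LKO females. LKO females lay below all LKO males (-0.87, SE 0.15, edgeR adjusted p = 3.24e-04). The floxed sexes overlapped, and their difference of -0.46 (SE 0.15, edgeR adjusted p = 0.04) missed the threshold in 10 of 27 alternatives, among them the omission of female floxed 4 (0.11) or of male floxed 1 and 2 (0.199). Exons of Spp1 share 309 bases with Gm42793 on the same strand.

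Most of the counts of the 9 listed cholangiocyte markers were those of Spp1, which is one of them. The 8 others summed to between 8.64 and 13.9 CPM in floxed females and 15.4 and 28.2 CPM in floxed males, and to 6.31 and 7.00 CPM in LKO females and 14.4 and 25.2 CPM in LKO males, so that females lay below males in both genotypes. Among them Epcam was higher and Krt23 lower in floxed females. Their part in the difference of Spp1 was not tested. Trem2, a lipid-sensing receptor, lay between 2.21 and 5.21 CPM in floxed females, 1.81 and 3.58 CPM in LKO females, 1.22 and 3.60 CPM in floxed males and 1.87 and 2.48 CPM in LKO males. Lgals3, encoding galectin-3, lay between 8.62 and 14.7, 7.85 and 15.3, 7.17 and 15.4 and 9.16 and 16.5 CPM in the same groups. For both genes the 4 ranges overlapped one another. Of 17 other genes of lipid-loaded macrophages, Ctsl, a cathepsin, was higher (0.69, SE 0.10, edgeR adjusted p = 0.00635) and Mmp12, macrophage elastase, was lower (-1.78, SE 0.24, edgeR adjusted p = 0.00549) in LKO than in floxed females. The 17 summed to between 20869 and 27620 CPM in floxed females, against 56.5 and 70.7 CPM for the 5 markers. Which cells their RNA came from was not tested.

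Of the 4 genes of monocytes and dendritic cells, Itgam rose in LKO females, as 4.44% of all genes did. None passed between the floxed sexes, where 22.9% of all genes did. Itgam encodes the integrin CD11b, carried by monocytes, neutrophils and recruited macrophages. It measured 1.53, 0.853, 1.13 and 1.48 CPM in floxed females and 4.72, 3.42, 1.89 and 1.79 CPM in LKO females. All LKO values were above all floxed values, by a narrow gap for LKO 7 and 8 and a wide one for LKO 5 and 6. The fold change was 1.24 (SE 0.34, edgeR adjusted p = 0.0481), a fold of 2.37, and it kept its call in 9 of 18 alternatives. The call was lost without floxed 1, 2, 3 or 4 (edgeR adjusted p = 0.0942, 0.13, 0.11 and 0.0517), without LKO 5 or 6 (0.126 and 0.104), with upper quartile scaling (0.0531), with library totals (0.0508) and with limma-voom (0.0745). In males it measured 1.05, 0.851, 0.819 and 1.03 CPM in floxed and 0.862, 0.627, 0.580 and 1.17 CPM in LKO mice, with a fold change of -0.20 that did not pass. LKO females exceeded LKO males by 1.82 (SE 0.31, edgeR adjusted p = 2.60e-04). The annotation places 3450 exon bases of Itgam in Gm49368 on the same strand as well, so its counts are uncertain.

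Itgax encodes CD11c, an integrin of dendritic cells and some macrophages, and it had the largest fold change below 0 among markers in females. It measured 3.33, 2.83, 2.30 and 6.59 CPM in floxed females and 1.22, 3.13, 1.95 and 1.21 CPM in LKO females. LKO 5, 7 and 8 lay below all floxed values, LKO 6 among them, and the fold change of -1.004 (SE 0.39) did not pass (edgeR adjusted p = 0.131). Among the 10 listed dendritic cell markers Zbtb46, a transcription factor of classical dendritic cells, was lower in LKO females (-0.67, SE 0.14, edgeR adjusted p = 0.019). Ccr2, the receptor that brings monocytes from marrow to tissue, lay between 2.68 and 5.50 CPM in floxed females, 2.57 and 6.48 CPM in LKO females, 3.29 and 8.10 CPM in floxed males and 3.94 and 5.28 CPM in LKO males. Ly6c2, a marker of inflammatory monocytes, lay between 0.853 and 3.01, 0.680 and 2.29, 0.699 and 1.36 and 0.567 and 1.24 CPM in these groups, and its near-identical paralog Ly6c1 makes its counts uncertain. Neither passed in any of these comparisons. Of 20 other genes of monocytes and interstitial macrophages tested in females, Nr4a1 (1.86, SE 0.32, edgeR adjusted p = 0.0106) and Fn1 (0.42, SE 0.11, edgeR adjusted p = 0.0475) rose in LKO mice and none fell. Without floxed 4 Fn1 did not pass (0.0639). That list summed to between 3204 and 3341 CPM in floxed females, against 7.21 and 16.6 CPM for the 4 markers. Which cells its RNA came from was not tested.

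Neutrophil markers were the group with the widest spread, and it lay in females. Summed over the 6 genes, the level was 15.9, 12.9, 16.6 and 77.1 CPM in floxed females 1 to 4 and 78.2, 115, 49.5 and 27.98 CPM in LKO females 5 to 8. In males the sums were 10.4, 7.06, 5.44 and 10.5 CPM in floxed and 7.73, 6.33, 5.96 and 9.38 CPM in LKO mice. Floxed 4 stood above LKO 7 and 8 and just below LKO 5, and floxed 1 to 3 lay below all LKO females. In males Cxcr2 and Retnlg were under the count filter, so their direction in a comparison of sexes was set by the filter. The 4 other genes, Csf3r, Mmp9, S100a8 and S100a9, were each higher in females, 4 of 4 in floxed and 4 of 4 in LKO mice (11.3% and 21.2% of all genes were higher), and in floxed mice none of the 4 passed without female floxed 4 or without male floxed 1 and 2. With edgeR none passed between LKO and floxed females with all 8 libraries, where 9.29% of all genes did. An unadjusted p under 0.05 was reached by 1 of the 6, Csf3r, and by 27.7% of all genes. The median fold change was 1.29 over the 6 and 0.00 over all genes. Cxcr2 and Retnlg met the count filter in females through the LKO libraries, as some floxed libraries fell under it. The filter thus favoured LKO for both, and both enter that median. In males 4 of the 6 could be tested between genotypes and none passed.

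S100a8 and S100a9 encode the 2 subunits of calprotectin, an abundant cytosolic protein of neutrophils. S100a8 measured 2.90, 1.53, 2.96 and 23.4 CPM in floxed and 22.2, 33.7, 13.3 and 6.68 CPM in LKO females. S100a9 measured 3.71, 2.38, 4.44 and 31.2 CPM in floxed and 30.3, 45.7, 19.03 and 8.47 CPM in LKO females. Floxed 4 was again within the LKO range for both. In males S100a8 measured 1.22, 0.791, 1.11 and 1.35 CPM in floxed and 1.03, 1.02, 0.672 and 1.39 CPM in LKO mice, and S100a9 measured 2.94, 1.064, 1.17 and 2.69 CPM in floxed and 1.72, 0.896, 1.47 and 1.55 CPM in LKO mice. All male values of S100a8 were below all female values, while S100a9 overlapped between the floxed sexes through male floxed 1 and 4. Their LKO against floxed fold changes in females, 1.30 (SE 0.79) and 1.31 (SE 0.78), did not pass with floxed 4 (edgeR adjusted p = 0.313 and 0.301) and passed without it, at 2.95 and 2.88 (0.0117 and 0.0122). Between floxed sexes the differences were 2.74 and 2.36 (SE 0.75 and 0.73, edgeR adjusted p = 0.0146 and 0.0276), and neither passed without female floxed 4, where they were 1.10 and 0.79 (0.116 and 0.287), or without male floxed 1 and 2 (0.101 and 0.117). Between LKO sexes they were 4.16 for both (SE 0.76 and 0.77, edgeR adjusted p = 4.03e-04 and 4.43e-04).

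Csf3r encodes the receptor for the granulocyte growth factor G-CSF. It measured 7.88, 6.80, 6.58 and 12.7 CPM in floxed and 15.3, 19.1, 9.93 and 8.78 CPM in LKO females, and 4.84, 4.23, 2.63 and 5.13 CPM in floxed and 4.14, 3.49, 3.12 and 5.25 CPM in LKO males. The sexes did not overlap in either genotype (0.97 in floxed mice, SE 0.28, edgeR adjusted p = 0.0183), and this call was lost without female floxed 4 (0.0739), male floxed 3 (0.0596) or male floxed 1 and 2 (0.0599). Mmp9, a gelatinase stored in neutrophil granules, measured 1.12, 1.38, 1.26 and 3.45 CPM in floxed and 3.38, 5.77, 3.51 and 0.835 CPM in LKO females, and 0.623, 0.578, 0.263 and 0.845 CPM in floxed and 0.373, 0.328, 0.305 and 0.598 CPM in LKO males. Floxed females exceeded floxed males by 1.60 (SE 0.51, edgeR adjusted p = 0.0335), though not without female floxed 4, where the difference was 1.08 (0.143), without male floxed 1 and 2 (0.125) or without male floxed 1, 2 or 3 (0.0575, 0.0693 and 0.0956). In males its fold change of -0.51 (SE 0.37) did not pass.

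Retnlg, a resistin-like protein of marrow granulocytes, measured 0.0934, 0.177, 0.567 and 4.49 CPM in floxed and 4.47, 7.19, 2.88 and 1.89 CPM in LKO females. In males it did not exceed 0.326 CPM. Floxed 4 stood far above the other floxed females, which overlapped the males, and all LKO females lay above all males. The difference of Retnlg between floxed sexes, 2.83, passed with all libraries. It did not pass without female floxed 4 (0.58, edgeR adjusted p = 0.63), without male floxed 1 and 2 (edgeR adjusted p = 0.17) or with limma-voom (adjusted p = 0.448). The call was also lost without male floxed 1, 2, 3 or 4 alone (edgeR adjusted p = 0.0821, 0.0926, 0.101 and 0.0882). Robust dispersion (0.0735), the replicate number as a block (0.149) and no filter (0.0501) lost it too. So did leaving out any LKO male (0.0541 to 0.0573) or female LKO 5 or 7 (0.0552 and 0.0506). Cxcr2, the receptor that draws neutrophils toward CXC chemokines, lay between 0.187 and 1.92 CPM in floxed females, 0.840 and 3.77 CPM in LKO females, 0.117 and 0.538 CPM in floxed males and 0.122 and 0.538 CPM in LKO males. Of the 19 other neutrophil genes tested in females, all 19 fold changes were above 0, and 2 passed: Lcn2, which encodes lipocalin-2 and is an acute-phase gene of hepatocytes as well (2.85, SE 0.50, edgeR adjusted p = 0.0112), and Prtn3, which encodes proteinase 3 (2.63, SE 0.67, edgeR adjusted p = 0.0387). Without floxed 4, 9 of the 19 passed, with Lcn2 at 3.37 and Prtn3 at 3.78 (0.00504 and 0.00609). Between floxed sexes 6 of the 19 were higher in females and none lower, with Wfdc21 at 0.94, Ltf (lactoferrin) at 4.79 and Ngp (a granule protein) at 5.04 (edgeR adjusted p = 2.64e-04, 0.016 and 0.0162). In males alone 12 of the 22 listed genes passed the count filter. A call of a gene that entered through the female libraries had to favour females. Without female floxed 4, 2 of the 19 passed, and Ltf and Ngp, at 2.04 and 1.49, did not (0.184 and 0.3). That list summed to between 673 and 1008 CPM in floxed females and between 314 and 519 CPM in floxed males. The 6 markers summed to between 12.9 and 77.1 CPM and between 5.44 and 10.5 CPM in these groups. Which cells the RNA of the list came from was not tested.

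All 5 genes listed for leukocytes in general were higher in floxed females than in floxed males, as 11.3% of all genes were. None of them passed between genotypes in either sex. The group is named by its list and holds genes of phagocytes, such as Cybb. Of 21 markers of T, NK and B cells, 1 was higher in floxed females. Ptprc encodes CD45, the surface phosphatase of blood cells. It measured 20.6, 18.8, 20.02 and 31.5 CPM in floxed and 22.3, 28.3, 23.2 and 20.2 CPM in LKO females, and 16.00, 12.5, 9.51 and 14.6 CPM in floxed and 13.1, 13.7, 12.5 and 17.5 CPM in LKO males. Tyrobp, the adaptor DAP12 of activating receptors, measured 22.01, 21.96, 23.3 and 31.7 CPM in floxed and 30.6, 34.7, 29.9 and 21.2 CPM in LKO females, and 17.8, 12.6, 10.6 and 12.2 CPM in floxed and 11.6, 11.5, 12.6 and 16.4 CPM in LKO males. Floxed females exceeded floxed males without overlap by 0.75 for Ptprc and 0.86 for Tyrobp (SE 0.18 and 0.18, edgeR adjusted p = 0.00648 and 0.00271).

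Cybb encodes the catalytic subunit of the phagocyte NADPH oxidase. It measured 31.6, 33.3, 36.5 and 54.2 CPM in floxed and 46.1, 44.4, 46.4 and 35.2 CPM in LKO females, and 21.9, 14.9, 12.1 and 14.6 CPM in floxed and 12.9, 15.6, 16.3 and 23.9 CPM in LKO males. Its difference between floxed sexes, 1.26 (SE 0.21, edgeR adjusted p = 5.28e-04), was the largest of these 5 genes. Laptm5, a lysosomal membrane protein of blood cells, measured 33.7, 30.05, 30.6 and 46.1 CPM in floxed and 39.4, 48.5, 39.6 and 33.8 CPM in LKO females, and 23.5, 14.8, 13.1 and 14.7 CPM in floxed and 15.8, 14.7, 14.7 and 19.6 CPM in LKO males. Fcer1g, the signalling chain of Fc receptors, measured 14.5, 15.1, 16.02 and 22.2 CPM in floxed and 20.95, 22.9, 17.7 and 14.8 CPM in LKO females, and 12.5, 9.43, 7.79 and 11.7 CPM in floxed and 9.91, 9.20, 9.41 and 14.7 CPM in LKO males. Neither gene overlapped between the floxed sexes, with differences of 1.05 and 0.68 (SE 0.18 and 0.19, edgeR adjusted p = 6.22e-04 and 0.0167), and the call of Fcer1g was lost without female floxed 4 (0.0642) or male floxed 3 (0.057).

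**Figure D2:**
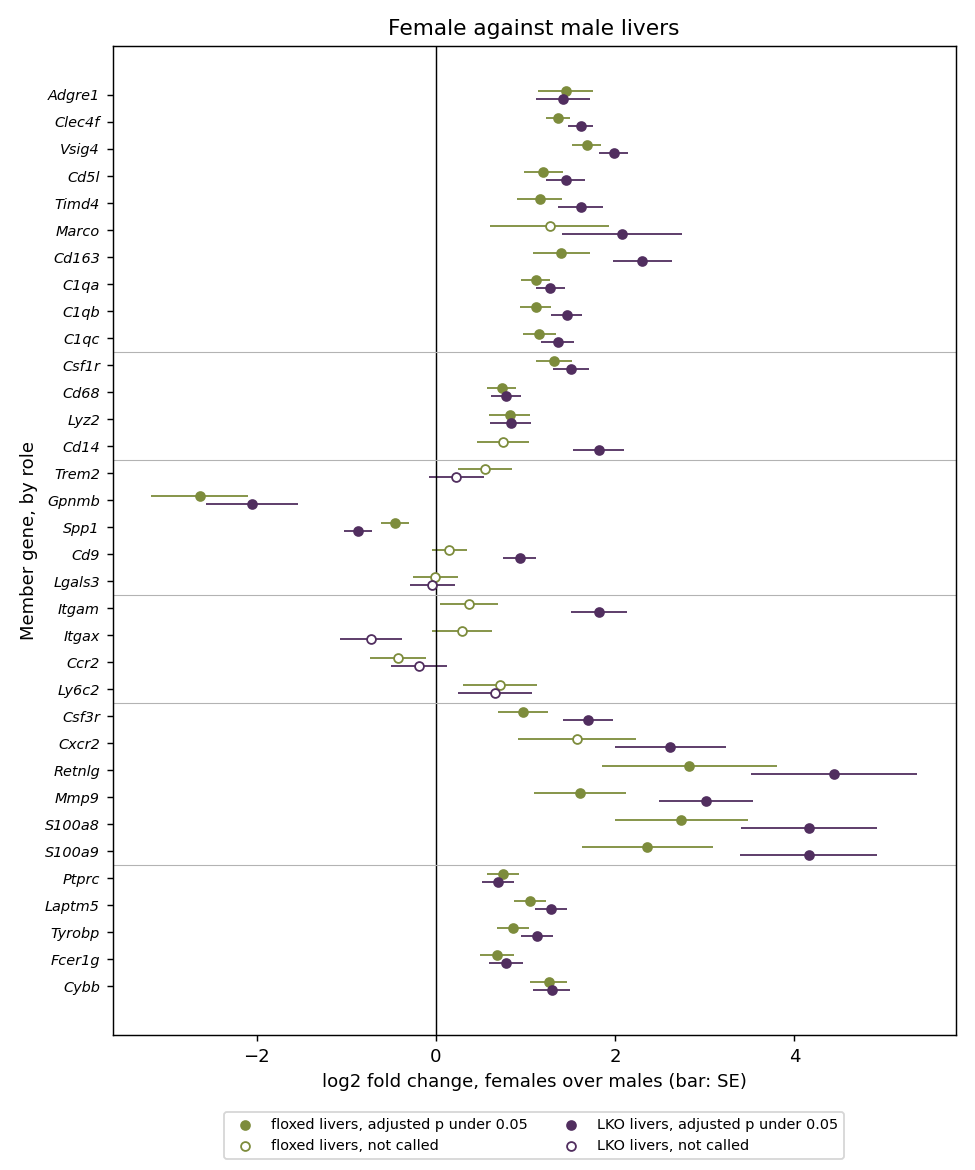
Log2 fold change of females over males for each of the 34 markers (rows, by role), in floxed and in LKO mice (separate symbols), with bars of 1 SE. Filled symbols passed the edgeR test at an adjusted p under 0.05. Resident macrophage, neutrophil and leukocyte genes lie to the right of 0, Gpnmb and Spp1 to the left, and the LKO symbols of S100a8 and S100a9 lie at 4.16. Cxcr2 and Retnlg were under the count filter in males.

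With all 16 libraries scaled together, as in the plot of female over male differences, all floxed females lay above all floxed males for 19 of the 34 markers, for 1 marker (Gpnmb) they lay below and 14 overlapped, where 24.1% of all genes did not overlap (11.6% with females above and 12.5% with females below). In LKO mice females were above for 24 markers and below for 2, where 39.1% of all genes did not overlap (19.1% with females above and 20% with females below). With each sex scaled alone, as in the CPM given here, floxed females also lay above for Cd14 and LKO females for Fcer1g, which makes 20 and 25 markers. The number of markers called between floxed sexes was 16 of 34 without female floxed 4 (18.4% of all genes) and 16 without male floxed 1 and 2 (15.3%). Of the 24 genes, 14 passed in all 27 alternatives run: Adgre1, C1qa, C1qb, C1qc, Cd5l, Cd68, Clec4f, Csf1r, Cybb, Laptm5, Ptprc, Timd4, Tyrobp and Vsig4. Of 19 other Kupffer cell genes tested, 16 were higher and 1 was lower in floxed females, led by Fcna, a ficolin (1.17, SE 0.12, edgeR adjusted p = 6.28e-06), Mertk, a receptor for apoptotic cells (0.76, SE 0.10, edgeR adjusted p = 1.13e-04), and Folr2, a folate receptor (1.18, SE 0.18, edgeR adjusted p = 2.24e-04). Of 16 genes of Kupffer cell transcription factors and the CSF1 axis, 7 were higher and none lower. Without female floxed 4 these counts were 14 higher and 1 lower of 19, and 4 higher and 0 lower of 16. For other cell types, 1 of 21 markers of T, NK and B cells and 2 of 15 markers of sinusoidal endothelium were higher in floxed females (1 endothelial marker was lower), where 11.3% of all genes were higher, and of 14 stellate cell and fibroblast markers 1 was higher and 4 were lower. Of the 21 lymphocyte markers, 18 had a fold change above 0 with a median of 0.62, and 5 had an unadjusted p under 0.05, all of them higher. Of 19 acute-phase genes of hepatocytes, 13 were higher and none was lower in floxed females (5 and 0 without female floxed 4), and the list summed to between 25836 and 42489.8 CPM in floxed females and 18518 and 24541 CPM in floxed males. The part of these lists in the marker differences was not tested.

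**Figure D3:**
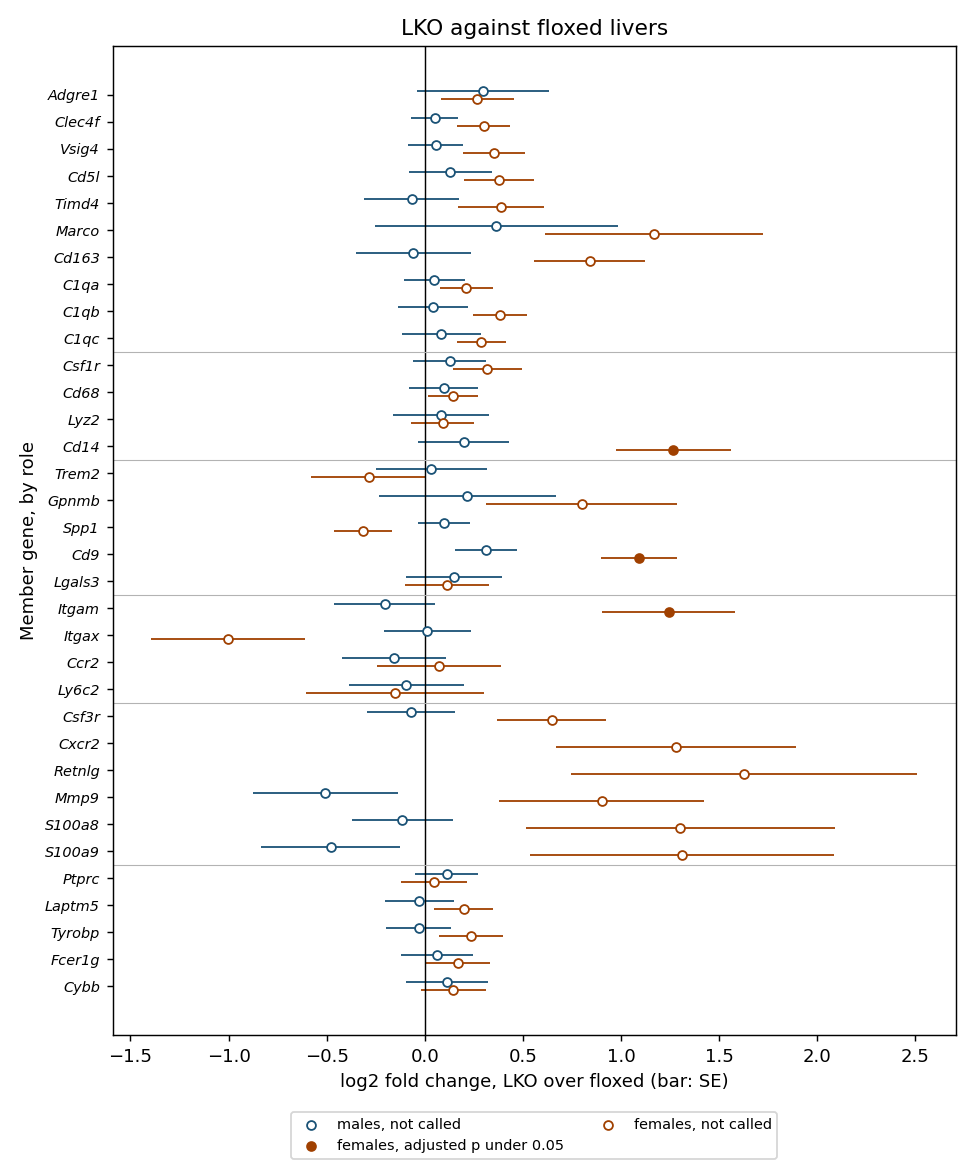
Log2 fold change of LKO over floxed livers for each marker (rows, by role), in females and in males (separate symbols), with bars of 1 SE. Filled symbols passed the edgeR test at an adjusted p under 0.05. They are Cd9, Cd14 and Itgam in females, at 1.09, 1.27 and 1.24, while no male symbol is filled.

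The plot of LKO over floxed fold changes sets the sexes side by side. In females 30 of 34 fold changes were above 0 (50.2% of all genes), with a median of 0.31 (0.00 for all genes), 9 had an unadjusted p under 0.05 (27.7% of all genes), and 2 markers, Cd9 and Itgam, did not overlap between genotypes, with LKO above (15.9% of all genes did not overlap, 7.61% with LKO above). Without floxed 4, 11 markers passed, where 12.9% of all genes did, and 2 of the 3 called with all libraries were among them. Floxed 4 held the highest value of its group for 32 of the 34 markers. Its omission was thus bound to raise most of these fold changes, and the calls gained are a description. The added genes were Vsig4, Clec4f, C1qb and Cd163 of the resident group, Csf1r, and the neutrophil genes Csf3r, Retnlg, S100a8 and S100a9. The fold change of Retnlg, a gene of few counts in floxed females, went from 1.63 to 3.87. Retnlg met the count filter in that fit through the LKO libraries, so a call of it had to favour LKO. With all libraries Cxcr2 and Retnlg also met the filter through LKO libraries. It favoured LKO for both, and both are among the 30 fold changes above 0. Without floxed 1, 2 or 3 or LKO 5 or 6, 1 marker passed, and it was Cd9 each time, where 2.53% to 4.25% of all genes passed. Without floxed 4 and LKO 7 together, 14 passed (19.6% of all genes).

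**Figure D4:**
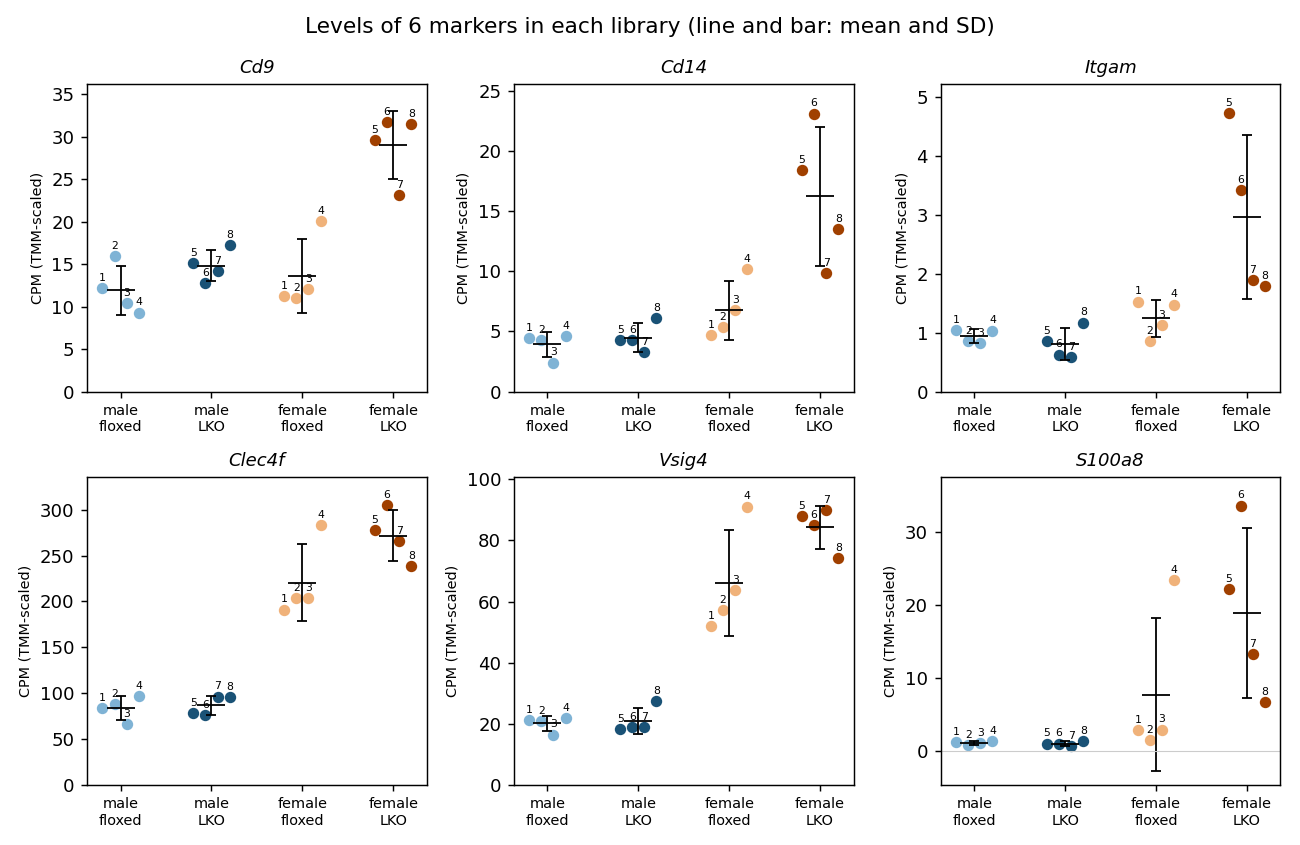
CPM of Cd9, Cd14, Itgam, Clec4f, Vsig4 and S100a8 in each library (points), by group, with the mean and SD of the 4 libraries of a group (bars). All 4 LKO females lie above all floxed females for Cd9 and Itgam, and female floxed 4 lies among the LKO females for Clec4f and S100a8 and just above them for Vsig4.

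In males the largest fold changes in size were -0.51 for Mmp9 and -0.48 for S100a9 (SE 0.37 and 0.35). By edgeR 0 of the 32 markers had an adjusted p under 0.05, and 0 had an unadjusted p under 0.05, where 12.3% of all genes did. DESeq2 and limma-voom also called 0. All 32 overlapped between genotypes (8.14% of all genes did not), 21 fold changes were above 0 (48.4% of all genes), and the median was 0.05, against -0.01 for all genes. That median was -0.12, with 5 fold changes above 0, without LKO 8, and -0.04, with 11 above 0, without floxed 3.

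The test of the difference between the female and the male fold change, a term in 1 model of all 16 libraries, called 0 of 34 markers with edgeR, where 4.42% of all genes passed. Of the 34, 3 had an unadjusted p under 0.05 (20.5% of all genes), and DESeq2 called 1, Itgam, at an adjusted p of 0.0279. The edgeR values were 1.45 for Itgam, 0.78 for Cd9 and 1.07 for Cd14 (SE 0.45, 0.27 and 0.41, adjusted p = 0.0751, 0.105 and 0.145). Without female floxed 4, 5 markers passed (Cd9, Cd14, Retnlg, S100a8 and S100a9), where 6.93% of all genes did. Retnlg met the count filter there through the LKO females, so a call of it had to favour them. Over both sexes together, Cd9 was higher in LKO mice by 0.70 (SE 0.13, edgeR adjusted p = 0.00539) and Cd14 by 0.73 (SE 0.20, edgeR adjusted p = 0.036), and these 2 of 34 were the markers called, where 8.55% of all genes passed and 4.05% passed higher. Cd9 passed in 26 of 26 alternatives and Cd14 in 15, not without male floxed 1 and 2 (0.0593).

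**Figure D5:**
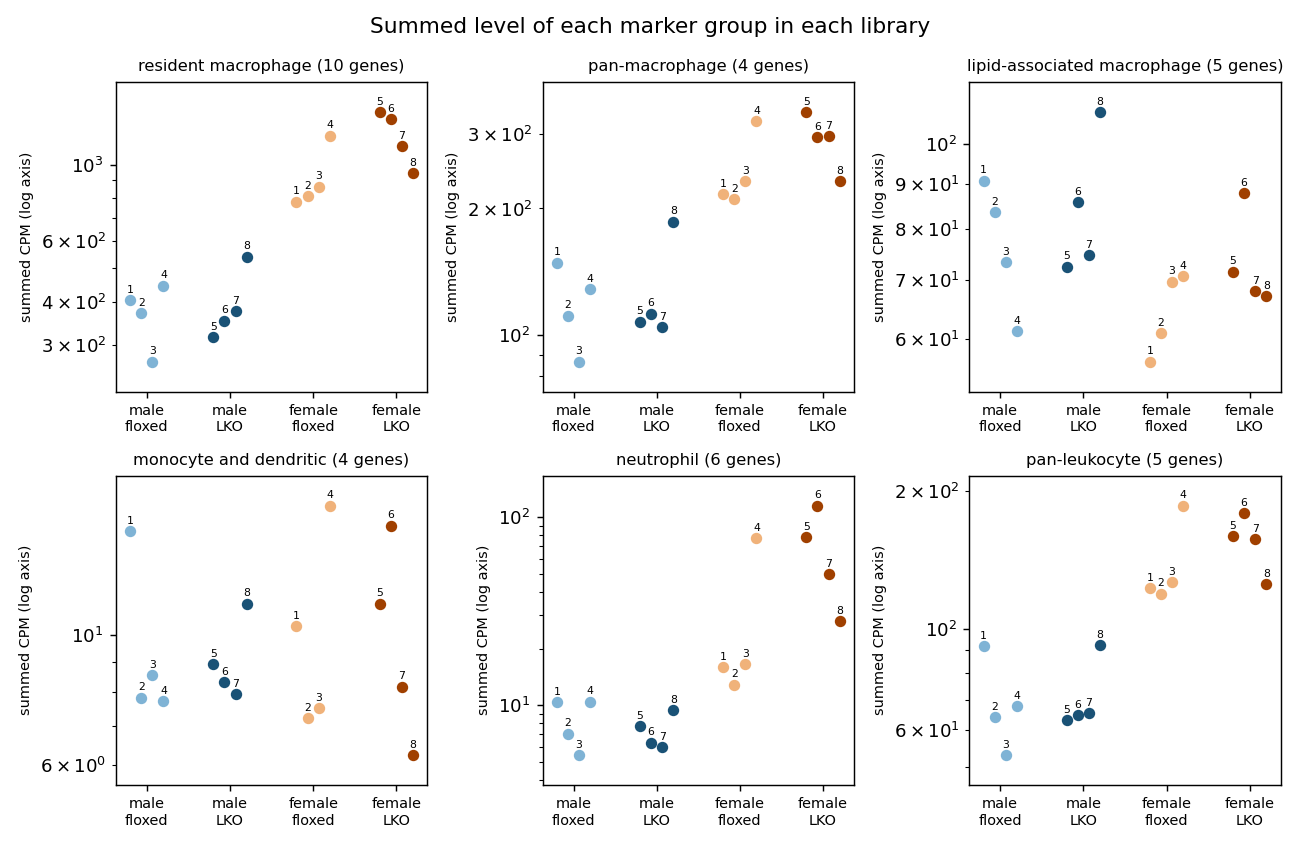
Summed CPM of the genes of each role group in each library (points), by group, on a log axis. Female sums lie above male sums for the resident macrophage, general macrophage, neutrophil and leukocyte groups, and overlap them for the lipid-associated and the monocyte and dendritic groups.

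In the plot of summed levels the lipid-associated and the monocyte and dendritic groups overlapped between the sexes. The 5 lipid-associated genes summed to between 56.5 and 70.7 CPM in floxed females, 67.1 and 87.8 CPM in LKO females, 61.2 and 90.8 CPM in floxed males and 72.5 and 109 CPM in LKO males. The 4 monocyte and dendritic genes summed to between 7.21 and 16.6, 6.25 and 15.3, 7.70 and 14.98 and 7.91 and 11.3 CPM in the same order. The lipid-associated sums of floxed females lay below those of LKO males, and all other pairs of groups overlapped for both sums.

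Other cell types and hepatocyte genes changed between the female genotypes beside the markers. Of all genes tested, 4.44% rose and 4.85% fell in LKO females. Of the acute-phase genes, the liver's secreted response to cytokines, 17 of 19 rose in LKO females and none fell, led by Saa2 (4.72, SE 0.62, edgeR adjusted p = 0.0051), and their sum lay between 69644 and 153482 CPM, against between 25836 and 42489.8 CPM in floxed females. Alb lay between 17544 and 30562 CPM in LKO females and between 42749 and 49975 CPM in floxed females. Of 15 sinusoidal endothelial markers 10 fell and none rose, with Oit3 at -1.001, Fcgr2b at -0.97 and Clec4g at -0.57, and their sum lay between 324 and 415 CPM, against between 431 and 498 CPM. Without floxed 4, 17 acute-phase genes rose, with Saa2 at 5.19, and 7 endothelial markers fell. Of 19 other Kupffer cell genes 2 fell, Hpgd at -0.75 and Cd81 at -0.32, and none rose, while without floxed 4 the count was 3 higher and 2 lower. Of the 16 transcription factor and CSF1 axis genes, Csf2rb, a shared cytokine receptor chain, rose (0.82, SE 0.17, edgeR adjusted p = 0.0195).

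Of 17 myeloid chemoattractants and growth factors tested in females, 2 rose and 3 fell in LKO mice, where 4.44% and 4.85% of all genes did. Ccl6, a chemokine of myeloid cells, rose by 1.17 (SE 0.28, edgeR adjusted p = 0.0311). The chemokines Cxcl10 and Ccl9 were lower, at -1.31 and -0.51 (SE 0.29 and 0.11, edgeR adjusted p = 0.0258 and 0.0256). The part of the endothelial, acute-phase and albumin differences in the female marker values was not tested. In males none of the genes of these lists passed with edgeR, and an unadjusted p under 0.05 was reached by 12.3% of all genes. It was reached by 5 of 19 acute-phase genes (all lower in LKO males), 3 of 15 endothelial markers (all higher), 5 of 18 markers of T, NK and B cells (3 higher and 2 lower) and 7 of 17 other genes of lipid-loaded macrophages (6 higher and 1 lower).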

How the data were processed

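Livers of 16 mice (4 in each of 4 groups) were profiled as poly(A) directional RNA-seq libraries, per the labels' protocols. The authors deposited raw counts per Ensembl gene, in 1 table for each sex with 8 libraries each. The submitters' processing notes name the build mm10, while the aligner, the counter and its strand setting are not given in the sources used here. Gene symbols, coordinates and exon lengths came from GENCODE M21 on the same build, and identifiers without a symbol there held 0.0289% and 0.0349% of the counts of the tables. The markers and the companion lists were chosen with earlier results of these data known.

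Groups were compared with edgeR 4.0.16 (R 4.3.3) by the quasi-likelihood test, with TMM scaling, the default expression filter (minimum count 10, minimum total 15) and Benjamini-Hochberg adjustment over all genes tested, called at an adjusted p under 0.05. SE is the fold change over the square root of F. Each sex was fitted alone for the genotype comparisons (15432 genes in females and 15355 in males), and all 16 libraries (16126 genes) together for the difference, the mean of both sexes and the comparisons of sexes. Printed CPM were scaled within a sex. Scaling of both sexes together moved levels by -1.86% to 1.25% and left the overlap of sexes as it was for 66 of 68 pairs of marker and genotype. The exceptions were Cd14 in floxed and Fcer1g in LKO mice. Samples of a group differed by far more than counting noise (chi-square per degree of freedom at least 13.7). Scripts were tested on simulated counts.

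All 34 markers were accounted for. Those that passed in any planned comparison, and the one with the smallest p in each role group and sex, were given in every library (Retnlg in males by its highest level only). From the companion lists up to 3 genes with the smallest p were given. Alternatives were other scalings, filters, robust dispersion, DESeq2 1.42.0, limma 3.58.1 (voom), all libraries in 1 fit, the replicate number as a block, leaving out each library, and leaving out the libraries that stood apart. The comparison of LKO sexes and the omissions of paired libraries were added after the data were seen. Promoter windows of Adgre1, C1qa, Csf1r, Cd14, Mmp9 and Tyrobp were not used here.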

Additional observations from a re-analysis of the deposited data

Results flagged for a closer look

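Among the 136 sets of 4 libraries (34 markers in 4 groups), 21 held a library far from the other 3 of its group by Dixon's criterion at the 95% level, which chance alone flags in about 1 of 20. Markers measured in the same library are not independent, so the flags of a library are not separate events. Female floxed 4 accounted for 12 of the 21, each time as the highest of its group. Its flagged resident macrophage genes were Adgre1 at 43.9 CPM (the other 3 libraries between 26.8 and 29.4), C1qb at 118 CPM (the other 3 libraries between 81.8 and 87.8) and Clec4f at 283 CPM (the other 3 libraries between 191 and 204). Beside them stood Cd9 at 20.1 CPM (the other 3 libraries between 11.0 and 12.0), Csf1r at 149 CPM (the other 3 libraries between 88.6 and 98.6) and Gpnmb at 1.13 CPM (the other 3 libraries between 0.504 and 0.589). The neutrophil genes were Mmp9 at 3.45 CPM (the other 3 libraries between 1.12 and 1.38), Retnlg at 4.49 CPM (the other 3 libraries between 0.0934 and 0.567), S100a8 at 23.4 CPM (the other 3 libraries between 1.53 and 2.96) and S100a9 at 31.2 CPM (the other 3 libraries between 2.38 and 4.44). The leukocyte genes were Ptprc at 31.5 CPM (the other 3 libraries between 18.8 and 20.6) and Tyrobp at 31.7 CPM (the other 3 libraries between 22.0 and 23.3).

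Male LKO 8 was the highest of its group for C1qc at 58.2 CPM (the other 3 libraries between 32.2 and 36.6), Ccr2 at 5.28 CPM (the other 3 libraries between 3.94 and 4.09), Fcer1g at 14.7 CPM (the other 3 libraries between 9.20 and 9.91) and Vsig4 at 27.3 CPM (the other 3 libraries between 18.2 and 19.0). Male floxed 3 was the lowest of its group for Cd14 at 2.40 CPM (the other 3 libraries between 4.26 and 4.60) and Vsig4 at 16.4 CPM (the other 3 libraries between 20.95 and 21.7), and male floxed 1 was the highest for Itgax at 4.47 CPM (the other 3 libraries between 2.35 and 2.71) and Laptm5 at 23.5 CPM (the other 3 libraries between 13.1 and 14.8). Female LKO 8 was the lowest of its group for Csf1r at 103 CPM (the other 3 libraries between 143 and 147).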

How the results depend on the processing

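For LKO against floxed males, 0 markers passed in all 18 alternatives, where 0.444% to 3.37% of all genes did. For females, where 3 passed, the count was 14 without floxed 4 and LKO 7 together and 1 to 11 when 1 library was left out (11 without floxed 4). Of all genes, 19.6% passed without that pair and 2.53% to 14.7% when 1 library was left out. The difference between the sexes' fold changes, with 0 called, gave 1 with DESeq2, 7 without floxed 4 and LKO 7, and 0 to 5 when 1 library was left out. The shares of all genes were 8.42%, 12.5% and 2.49% to 8.77% in the same order. Both sexes together, with 2 called, gave 1 with limma-voom, 1 without male floxed 1 and 2, 7 without female floxed 4 and LKO 7, and 1 to 6 when 1 library was left out. The shares of all genes were 8.3%, 6.51%, 17.8% and 4.81% to 13.8% in the same order. For floxed females against males the count of 24 ran from 16 to 26, and from 16 to 24 when 1 library was left out. The shares of all genes ran from 14.3% to 26.8% and from 17.5% to 23.9%. For LKO females against males, with 29 called, the count ran from 28 to 30, and the share of all genes from 28% to 47.1%. No called fold change of a marker turned its sign. Cd9 in females kept its call in all 18 alternatives, Cd14 in 13 and Itgam in 9. The cause of these shifts was not tested.

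Replicate numbers are shared across the sexes and not across genotypes. Same-numbered libraries did not deviate together (r from -0.12 to 0.13 over genes, own number best for 2 of 8), so the numbers were not taken to pair mice. With a replicate block the difference between the sexes' fold changes called 1 marker, Cd163 (0.90, edgeR adjusted p = 0.0258). Floxed females against males called 23. The genotype comparisons could not be blocked, since no number occurs in both genotypes. At the lowest levels, such as Retnlg in males, counts per library fell to 2 and limit what can be seen.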

Other observations

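In 1 male LKO liver, LKO 5, the 22 markers of T, NK and B cells summed to 215 CPM, while the lowest sum among LKO males was 22.8 CPM. The 34 myeloid markers were lowest of the group in that library for 15 genes and highest for 2.

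The erythroid and platelet markers, a measure of blood in the tissue, summed to between 55.1 and 248 CPM in floxed females, 120.1 and 358 CPM in LKO females, 155 and 244 CPM in floxed males and 171 and 364 CPM in LKO males. None of the 8 tested passed between LKO and floxed females with edgeR, and 0 had an unadjusted p under 0.05. Between floxed females and floxed males, Ppbp, a platelet chemokine, was higher (not without female floxed 4) and Alas2, an enzyme of haem synthesis in red cells, was lower in females.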
